A study of Mus musculus with 8 samples.

Results

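Adipogenic regulators are the transcription factors that turn a fibroblast-like precursor into a fat cell, together with the first fat-cell genes that they switch on. The 8 genes described here were taken by symbol: Pparg, Cebpa, Cebpb, Cebpd, Zfp423 and Klf15, which encode transcription factors, and Fabp4 and Lpl, which encode products of the fat cell. Each was measured by 1 probe set with a single gene symbol, and together they are 8 of the 19938 genes on the arrays. The samples were mouse embryonic fibroblasts of Daxx knockout animals on an FVB/N background, grown in serum-containing medium. In 2 samples named DaxxA and 2 named DaxxB the cells had been complemented with Daxx, a histone chaperone and transcriptional regulator, and in 4 samples they had been complemented with a vector. All 8 samples therefore carried the knockout, and the labels name no adipogenic induction, leave the letters A and B unexplained, and do not state whether the samples of a group were separate cultures or whether A and B are single lines. The p-values therefore set each difference between groups against the scatter of these samples, a scatter that may be technical. The stated aim was to find genes regulated by Daxx.

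In the known course of fat-cell formation, Zfp423 marks committed precursors, C/EBP beta and C/EBP delta (Cebpb and Cebpd) rise first, and they switch on Pparg and Cebpa, which then maintain each other. PPARG is a nuclear receptor that binds DNA as a dimer with a retinoid X receptor. Cultured embryonic fibroblasts hold cells that can follow this course when given adipogenic hormones, and they express Pparg at a low level before that.

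Values are log2 signals made by the robust multi-array average (RMA), so a difference of 1 is a doubling, and a level may be compared between arrays for 1 gene but not between genes. Each difference is Daxx minus vector, given with its standard error (SE), unless another pair is named. They come from limma, with p-values adjusted by Benjamini and Hochberg over all genes, and a gene was called where the adjusted p was below 0.05. In bulk RNA, fewer cells of a type and less RNA per cell cannot be told apart. Vector replicate 2 stood apart: its interquartile range was 2.79, against 3.31 to 3.39 in the other 7 arrays, and the median of 1027 olfactory receptor genes, a set with no known use in fibroblasts, was 5.21 there, against 4.65 to 4.7. Results on 7 arrays are those without that array. The Daxx probe set read 7.23 to 7.46 in the Daxx arrays and 6.85 to 7.34 in the vector arrays (difference 0.20, limma adjusted p = 0.46), so it did not separate the conditions, and the groups below rest on the labels. The position of its probes relative to the deleted or the added sequence was not analysed here.

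Pparg has several start sites. The 250 bases before each of its 3 starts in RefSeq (GRCm38.p6) are shown because Pparg and Cebpd were the 2 members called, and C/EBP factors are known to act on Pparg. Each window is written 5′ to 3′ on the strand of the gene. The capitals mark matches, on either strand, to TTGCNNAA, a form of the C/EBP recognition sequence, and to AGGTCA, a nuclear receptor half-site. Of 10 motifs searched, these 2 were picked for capitals after all matches were seen.
Pparg start A, chr6:115360894-115361143 (+ strand): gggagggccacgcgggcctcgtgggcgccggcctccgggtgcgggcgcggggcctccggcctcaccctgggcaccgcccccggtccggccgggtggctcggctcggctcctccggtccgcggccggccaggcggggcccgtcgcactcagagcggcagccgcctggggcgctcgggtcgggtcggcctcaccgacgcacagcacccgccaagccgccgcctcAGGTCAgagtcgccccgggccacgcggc
Pparg start B, chr6:115362099-115362348 (+ strand): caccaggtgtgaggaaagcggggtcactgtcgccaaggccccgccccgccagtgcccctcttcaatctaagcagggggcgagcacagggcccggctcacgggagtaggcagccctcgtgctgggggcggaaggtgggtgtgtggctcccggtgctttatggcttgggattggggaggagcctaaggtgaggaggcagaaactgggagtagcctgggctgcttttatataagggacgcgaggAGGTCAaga
Pparg start C, chr6:115421816-115422065 (+ strand): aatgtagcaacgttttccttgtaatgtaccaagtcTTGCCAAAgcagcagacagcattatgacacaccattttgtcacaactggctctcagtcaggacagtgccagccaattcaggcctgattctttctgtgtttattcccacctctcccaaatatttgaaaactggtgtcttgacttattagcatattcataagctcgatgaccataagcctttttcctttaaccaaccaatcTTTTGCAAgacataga
Start A and start B each had 1 AGGTCA, beginning 28 and 9 bases before the start, and no TTGCNNAA. Start C had 2 matches to TTGCNNAA, which begin 215 and 16 bases before the start and do not overlap each other, and no AGGTCA. TTGCNNAA was found at least once in 9.56% and AGGTCA in 14.0% of 32851 windows of this length, taken over all genes. These shares are for single windows and were not matched for G and C content. The other 8 motifs were also searched on both strands. The GC box GGGCGG (32.7% of all windows) matched once at start A and 2 times at start B, and TATAAA (12.4%) once at start B. TTGCAA (5.34%) matched once at start C, inside the nearer TTGCNNAA match. No Pparg window held the C/EBP palindrome TTGCGCAA (0.164%), the cAMP response element TGACGTCA (1.55%) or its half-site TGACG (17.8%), the E-box CACGTG (6.02%), or the PPAR response element, searched as a pair of AGGTCA with any 1 base between them (0.0335%). The G and C content was 82.4% at start A, 63.6% at start B and 40.8% at start C. The table of promoters held entries for 5 of the 8 members. Zfp423, which was not called, also matched both motifs, with TTGCNNAA beginning 131 bases before a start and AGGTCA 34 bases before another. The windows of Cebpa, Cebpb and Klf15 matched neither. All these matches are letters in a window, not measured binding. The probe set for Pparg gives 1 value for the gene, so the level below is not assigned to any of the 3 starts.

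The main comparison set the 4 Daxx arrays against the 4 vector arrays. Cebpd and Pparg were lower in the Daxx arrays, and no member was called higher: 0 of 8 rose, 2 fell and 6 did not pass, where 2.73% of all genes were called lower and 1.80% higher. The median difference of the 8 members was -0.05, against -0.028 over all genes. On 7 arrays the 2 called members were again Cebpd and Pparg, both lower, where 7.57% of all genes were called lower and 5.26% higher.

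**Figure D1:**
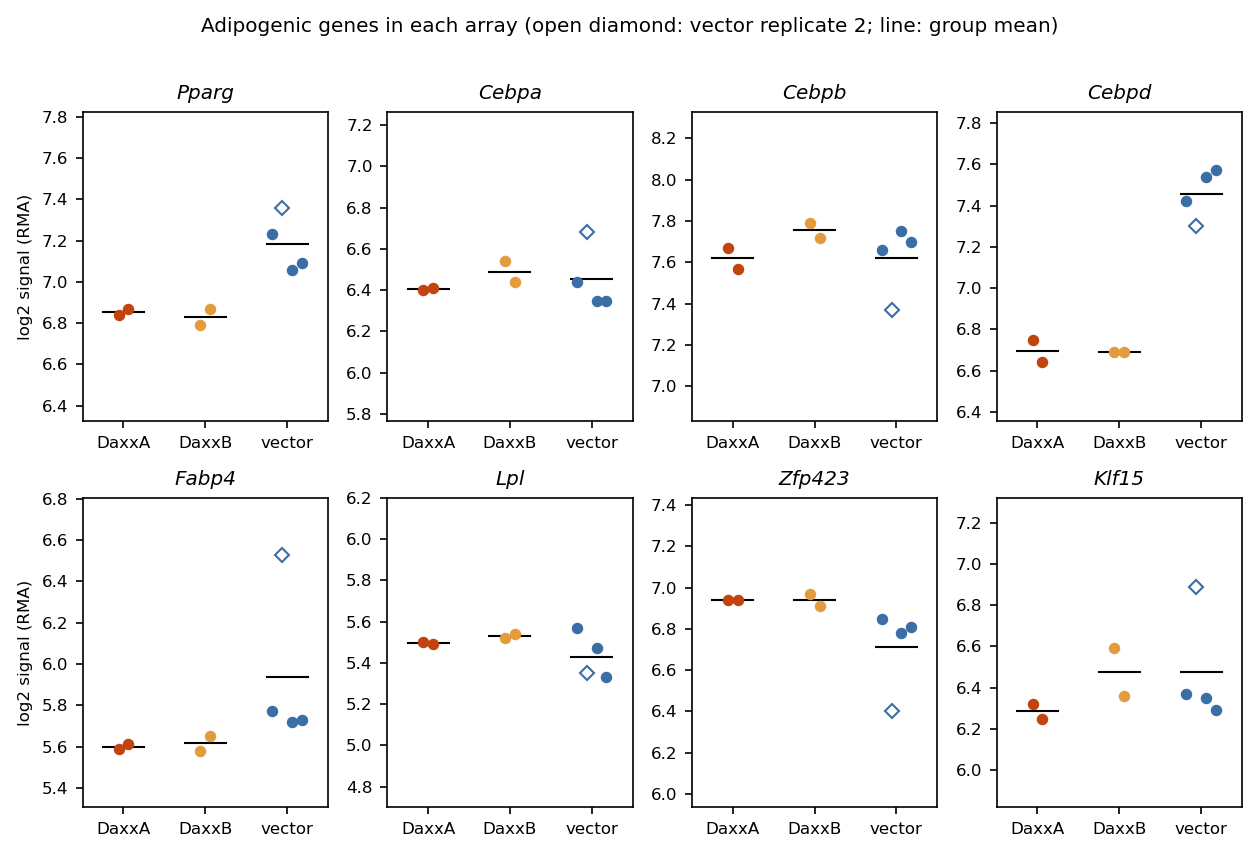
Log2 signal (RMA, vertical axis) of the 8 adipogenic genes in each array, grouped as DaxxA, DaxxB and vector, with each panel spanning the same height on the log2 scale. Points are single arrays, lines are group means and the open diamond is vector replicate 2; the Daxx points for Cebpd (6.64 to 6.75) and Pparg (6.79 to 6.87) lie below every vector point.

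Cebpd, an early C/EBP factor that also responds to glucocorticoids and inflammatory signals, changed most. It read 6.75 and 6.64 in DaxxA, 6.69 and 6.69 in DaxxB, and 7.42, 7.30, 7.54 and 7.57 in vector replicates 1 to 4. All 4 Daxx values lay below all 4 vector values, with a gap wider than the range of either condition. Cebpd averaged 6.69 ± 0.047 in the Daxx arrays and 7.46 ± 0.123 in the vector arrays (SD, n = 4 each). Its signal fell by 0.76 (log2; SE 0.0697, 1.69-fold, 95% interval -0.92 to -0.60, limma adjusted p = 0.000466). Of all genes, 0.682% had a difference at least as large in size. On 7 arrays the difference was -0.81 (limma adjusted p = 2.92e-06).

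Cebpb, the other early C/EBP factor, was not called. It read 7.67 and 7.57 in DaxxA, 7.79 and 7.72 in DaxxB, and 7.66, 7.37, 7.75 and 7.70 in the vector replicates. The conditions overlapped, and the lowest value was that of vector replicate 2. The difference was 0.07 (SE 0.0904, 95% interval -0.14 to 0.27, limma adjusted p = 0.751), and -0.01 with an interval from -0.14 to 0.11 on 7 arrays. The intervals of Cebpb and Cebpd did not overlap, although the difference between the genes was not tested.

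Pparg, the nuclear receptor at the centre of the programme, was lower by a smaller step. It read 6.84 and 6.87 in DaxxA, 6.79 and 6.87 in DaxxB, and 7.23, 7.36, 7.06 and 7.09 in the vector replicates. The Daxx arrays lay close together and below every vector array, and vector replicate 2 was the highest. Pparg averaged 6.84 ± 0.0389 in the Daxx arrays and 7.18 ± 0.139 in the vector arrays (SD, n = 4 each), and its signal fell by 0.34 (log2; SE 0.0737, 1.27-fold, 95% interval -0.51 to -0.17, limma adjusted p = 0.0373). Of all genes, 4.78% had a difference at least as large in size. Without vector replicate 2 it fell by 0.28 (SE 0.0511, limma adjusted p = 0.00471). The call was lost when any other single array was left out, with adjusted p-values from 0.0506 to 0.123 and differences from -0.38 to -0.32.

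Cebpa, which works with PPARG in the mature fat cell, was not called. It read 6.40 and 6.41 in DaxxA, 6.54 and 6.44 in DaxxB, and 6.44, 6.68, 6.35 and 6.35 in the vector replicates, which overlapped them. The 95% interval of the difference ran from -0.19 to 0.18 (limma adjusted p = 0.982), and on 7 arrays from -0.04 to 0.18, so a change in the mean as large as that of Cebpd lay outside both. Klf15, a Kruppel-like factor that promotes fat-cell formation and glucose uptake, read 6.32 and 6.25 in DaxxA, 6.59 and 6.36 in DaxxB, and 6.37, 6.89, 6.35 and 6.29 in the vector replicates. Its highest values were those of vector replicate 2 and DaxxB replicate 1. The difference of -0.09 had an interval from -0.41 to 0.22 (limma adjusted p = 0.772), and it was 0.05 on 7 arrays.

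Zfp423, the zinc finger factor of committed precursors, lay on the other side. It read 6.94 and 6.94 in DaxxA, 6.97 and 6.91 in DaxxB, and 6.85, 6.40, 6.78 and 6.81 in the vector replicates. The Daxx values lay above all vector values, but the difference of 0.23 (SE 0.0977) did not pass (limma adjusted p = 0.3). Vector replicate 2 lay farthest from the rest, and without it the difference was 0.13 (SE 0.0414, limma adjusted p = 0.0765).

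The 2 fat-cell products did not pass either. Fabp4, the fatty acid carrier of adipocytes and a direct PPARG target, read 5.59 and 5.61 in DaxxA, 5.58 and 5.65 in DaxxB, and 5.77, 6.53, 5.72 and 5.73 in the vector replicates. The Daxx values lay below all vector values, and vector replicate 2 was far above the other 7 arrays. The difference was -0.33 (SE 0.170, limma adjusted p = 0.426), and -0.13 (SE 0.0411, limma adjusted p = 0.0604) on 7 arrays. Lpl, the lipase that frees fatty acids from lipoproteins, read 5.50 and 5.49 in DaxxA, 5.52 and 5.54 in DaxxB, and 5.57, 5.35, 5.47 and 5.33 in the vector replicates, which overlapped. Its difference was 0.08 with an interval from -0.06 to 0.23 (limma adjusted p = 0.647). In all, the conditions did not overlap for 4 members, Cebpd, Pparg and Fabp4 with Daxx lower and Zfp423 with Daxx higher, where 6.79% and 8.02% of all genes were separated in these directions. The mean levels of Fabp4 and Lpl were above those of 91.3% and 87.0% of the olfactory receptor genes, and those of the other 6 members above 97.4% to 99.8%. Probe sets differ in their own brightness, so this is only a rough guide to how near the background each gene was read.

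**Figure D2:**
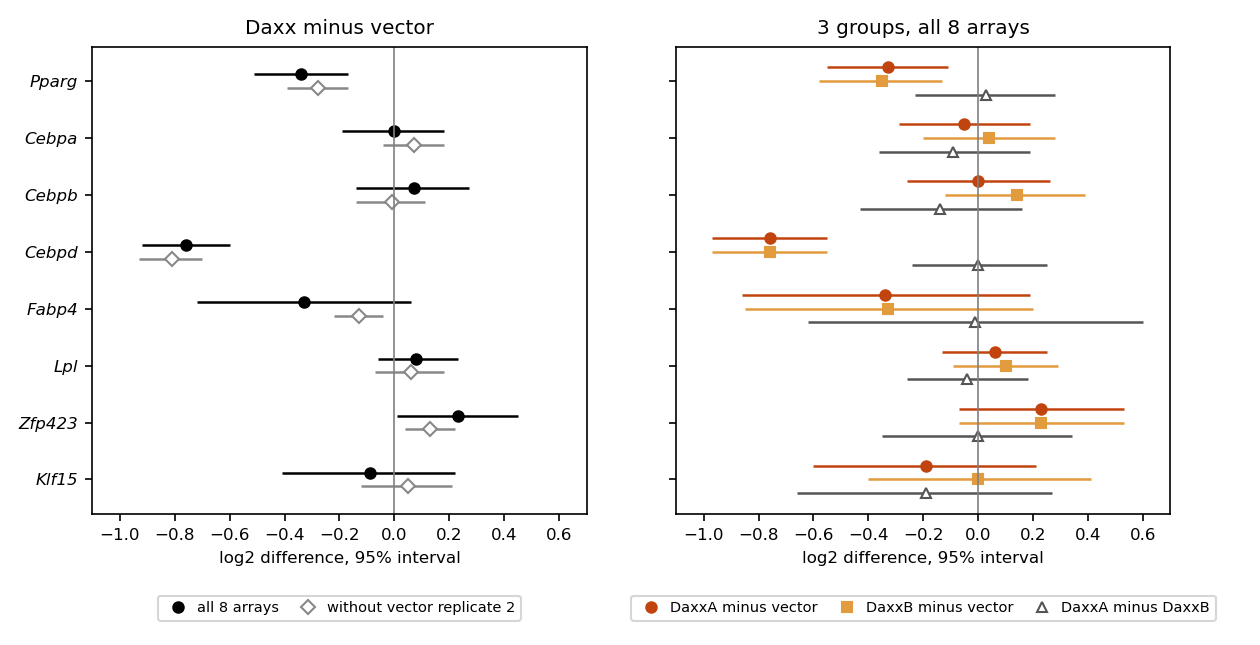
Log2 differences (horizontal axis) with 95% intervals for the 8 adipogenic genes. The left panel shows Daxx minus vector on all 8 arrays (filled circles) and on 7 arrays without vector replicate 2 (open diamonds), and the right panel shows DaxxA minus vector, DaxxB minus vector and DaxxA minus DaxxB on 8 arrays; Cebpd lies near -0.76 in both Daxx groups, and its DaxxA minus DaxxB interval runs from -0.24 to 0.25.

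DaxxA and DaxxB were then compared with vector one at a time, in a fit of 3 groups whose comparisons share the vector arrays. Cebpd was the 1 member called in each, where 1.45% of all genes were called lower in DaxxA and 1.92% in DaxxB. It fell by 0.76 in DaxxA (SE 0.0895, limma adjusted p = 0.00705) and by 0.76 in DaxxB (SE 0.0895, limma adjusted p = 0.00671). With 1 of the 2 arrays of either group left out, Cebpd was no longer called there (adjusted p from 0.0766 to 0.136). Pparg differed by -0.33 in DaxxA (limma adjusted p = 0.193) and by -0.35 in DaxxB (limma adjusted p = 0.126). On 7 arrays both Pparg and Cebpd were called lower in each group, Pparg with adjusted p-values of 0.0145 in DaxxA and 0.00641 in DaxxB, where 6.80% and 9.53% of all genes were called lower. In DaxxB more genes were then called higher than lower, 10.9% of all.

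No member was called between DaxxA and DaxxB. The limma test called 0 of 8 members and 0.0% of all genes, with 0 members and 846 genes at an unadjusted p below 0.05. For Pparg the mean was 6.86 in DaxxA and 6.83 in DaxxB, and the interval of the difference ran from -0.23 to 0.28. For Cebpd the means were 6.70 and 6.69, with an interval from -0.24 to 0.25. In order of level, vector came first and the 2 Daxx groups followed without a difference beyond their spread for both genes. Among the 8 members Klf15 had the largest difference in size, -0.19 with an interval from -0.66 to 0.27. On 7 arrays limma called 2.15% of all genes between DaxxA and DaxxB and again 0 members. Klf15 and Cebpb had unadjusted limma p-values of 0.0237 and 0.0414 there, where 4445 of all 19938 genes were below 0.05.

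The genes around this network were followed in 8 lists, chosen with earlier results of these data known. Their counts beside the shares of all genes are therefore descriptive and test no excess. Of all genes, 1.80% were called higher and 2.73% lower on 8 arrays, and 5.26% and 7.57% on 7 arrays. Among 16 measured PPAR and RXR receptors and their coregulators, 0 rose, 1 fell and 15 did not pass, with a median difference of 0.0 (2 rose and 2 fell on 7 arrays). The 1 that fell was Ppargc1a, the coactivator PGC-1 alpha, first found as a partner of PPARG in brown fat. It read 7.07 and 7.08 in DaxxA, 7.05 and 6.95 in DaxxB, and 8.44, 8.27, 8.31 and 8.4 in the vector replicates. The conditions were more than 1 log2 unit apart, and it fell by 1.32 (SE 0.0602, 2.49-fold, limma adjusted p = 2.02e-05). The C/EBP family and its dimer partners, without the 3 members above, had 1 of 6 higher and 0 lower, with a median of 0.13. This was Atf4, a stress-responsive factor that can pair with C/EBP proteins, which rose by 0.42 (SE 0.0861, 1.34-fold, limma adjusted p = 0.0302).

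Other factors that promote adipogenesis had 0 of 20 higher, 4 lower and 16 not passing, with a median of -0.11. On 7 arrays 2 were higher and 9 lower. Over all genes the share called lower also rose, from 2.73% on 8 arrays to 7.57% on 7, and the share called higher from 1.80% to 5.26%. Bmp4, a ligand that commits precursors to the fat lineage, read 10.85 and 10.81 in DaxxA, 10.79 and 10.73 in DaxxB, and 12.08, 11.88, 11.98 and 11.99 in the vector replicates. It fell by 1.19 (SE 0.0598, 2.28-fold, limma adjusted p = 2.02e-05). Ebf3, an early B cell factor of mesenchymal cells, read 7.38 and 7.30 in DaxxA, 7.14 and 7.14 in DaxxB, and 8.47, 8.32, 8.43 and 8.52 in the vector replicates. It fell by 1.19 (SE 0.0747, 2.29-fold, limma adjusted p = 5.28e-05). The conditions did not overlap for either gene. Smaller steps were seen for Stat5a, a transcription factor downstream of growth hormone and cytokines, which fell by 0.32 (limma adjusted p = 0.0155), and Igf1r, the receptor for insulin-like growth factor, which fell by 0.35 (limma adjusted p = 0.0382).

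Inhibitors of adipogenesis moved in both directions. Of 23 measured, 2 rose, 5 fell and 16 did not pass, with a median of -0.03 (3 rose and 7 fell on 7 arrays). Of all genes, 1.80% were called higher and 2.73% lower. The 2 that rose were Bhlhe40, by 0.59 (limma adjusted p = 0.00424), and Hes1, by 0.27 (limma adjusted p = 0.029). Foxo1 fell by 0.41 (limma adjusted p = 0.03), and the other 4 that fell follow. Zfp521, the paralogue and antagonist of Zfp423, read 6.42 and 6.39 in DaxxA, 6.47 and 6.21 in DaxxB, and 7.41, 7.22, 7.30 and 7.52 in the vector replicates. It fell by 0.99 (SE 0.0833, 1.99-fold, limma adjusted p = 0.00029), while Zfp423 itself was among the members that did not pass. Runx1t1, a corepressor that holds back C/EBP activity, fell by 0.91 (SE 0.0824, limma adjusted p = 0.000437). Wnt5a, a noncanonical Wnt ligand, read 6.40 and 6.35 in DaxxA, 6.35 and 6.27 in DaxxB, and 7.54, 6.92, 7.44 and 7.53 in the vector replicates, and it fell by 1.01 (SE 0.132, limma adjusted p = 0.00318). Pdgfrb, a receptor whose activity keeps precursors undifferentiated, fell by 0.70 (SE 0.0837, limma adjusted p = 0.00202).

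**Figure D3:**
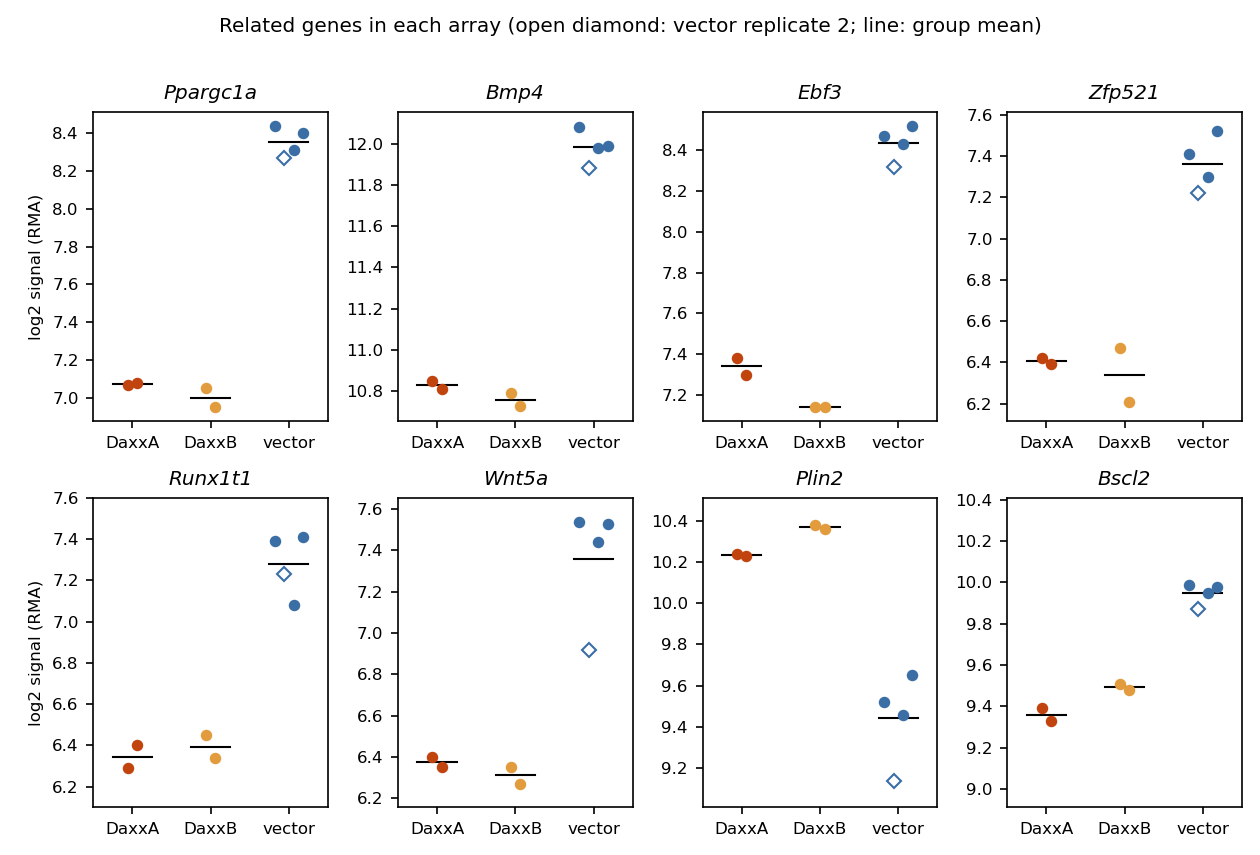
Log2 signal (RMA, vertical axis) of 8 genes of the related lists, picked after their values were seen, in each array, grouped as DaxxA, DaxxB and vector. Points are single arrays, lines are group means and the open diamond is vector replicate 2; Ppargc1a, Bmp4, Ebf3, Zfp521, Runx1t1, Wnt5a and Bscl2 lie lower in every Daxx array than in any vector array, and Plin2 lies higher.

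Most fat-cell genes and PPARG targets did not pass the test, as for all genes, of which 1.80% were called higher and 2.73% lower. Of 27 measured, 1 rose, 2 fell and 24 did not pass, with a median of -0.03 (2 rose and 3 fell on 7 arrays). Plin2, the coat protein of lipid droplets in most cell types, read 10.24 and 10.23 in DaxxA, 10.38 and 10.36 in DaxxB, and 9.52, 9.14, 9.46 and 9.65 in the vector replicates. It rose by 0.86 (SE 0.105, 1.81-fold, limma adjusted p = 0.00229). Bscl2, which encodes seipin, a protein of lipid droplet assembly, fell by 0.52 (SE 0.0598, limma adjusted p = 0.00164). Cpt1a, the gate of mitochondrial fatty acid oxidation, fell by 0.32 (limma adjusted p = 0.0412). These 3 genes are used outside fat cells too.

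Calls in the families of the individual members stand beside 1.80% of all genes called higher and 2.73% lower. On 7 arrays these shares were 5.26% and 7.57%. Among 10 measured genes of lipoprotein lipase maturation and control 0 were called (median -0.01). The nearest were Vldlr, the very low density lipoprotein receptor, at 0.41 (limma adjusted p = 0.134), and Sel1l, needed for the lipase to leave the endoplasmic reticulum, at 0.13 (limma adjusted p = 0.369). On 7 arrays Vldlr was called higher with 0.27. Of 8 other fatty acid-binding proteins 1 rose and 0 fell (median -0.06), and on 7 arrays 1 rose, Fabp7, and 1 fell, Fabp5, the epidermal form. Fabp7, the form of the brain and of neural precursors, read 8.43 and 8.34 in DaxxA, 8.80 and 8.76 in DaxxB, and 7.89, 8.06, 7.97 and 7.98 in the vector replicates, and it rose by 0.61 (SE 0.110, 1.52-fold, limma adjusted p = 0.0173). Both DaxxB arrays lay above both DaxxA arrays, a difference of -0.40 for DaxxA minus DaxxB that limma called on 7 arrays (adjusted p = 0.0237) and not on 8 (adjusted p = 1.0). Of 16 other Kruppel-like factors 0 rose and 1 fell (median 0.0), with 3 higher and 1 lower on 7 arrays. Klf8, a repressor-type member of the family, fell by 0.39 (SE 0.0677, limma adjusted p = 0.0138). Over all genes the median difference was -0.028, and 0.015 on 7 arrays.

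**Figure D4:**
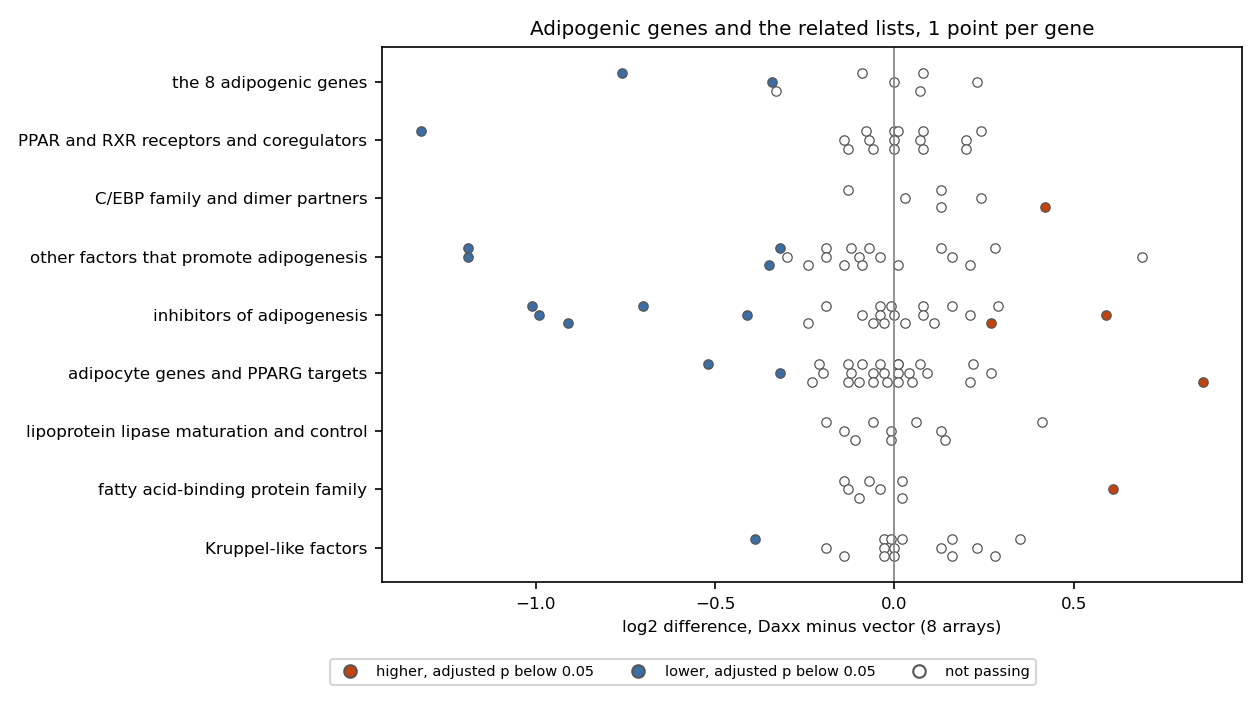
Log2 difference, Daxx minus vector on 8 arrays (horizontal axis), of the 8 adipogenic genes and of 8 related gene lists, 1 point per gene, with filled points for genes called at an adjusted p below 0.05. The called points farthest to the left are Ppargc1a at -1.32, Bmp4 at -1.19 and Ebf3 at -1.19, and the called point farthest to the right is Plin2 at 0.86.

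Cell type markers were read beside these results. Their calls stand against 1.80% of all genes called higher and 2.73% lower on 8 arrays, and 5.26% and 7.57% on 7 arrays. Of 6 measured markers of mature adipocytes 0 were called, and their mean level was 5.84 to 5.98 in the Daxx arrays and 5.86 to 6.32 in the vector arrays (5.86 to 5.95 without vector replicate 2). None of the 6 was brighter than 99% of the olfactory receptor genes, whereas 8 of 10 fibroblast markers were. Adiponectin, Adipoq, read 5.22 to 5.27 in the Daxx arrays and 5.15 to 5.45 in the vector arrays. Markers of macrophages and of endothelial cells, which also use Lpl and Fabp4, had 0 of 8 and 0 of 7 called, with means of 5.71 to 5.81 and 5.61 to 5.69 in the Daxx arrays, and 5.69 to 5.93 and 5.61 to 5.95 in the vector arrays. Epithelial markers had 0 of 6 called, bone and cartilage markers 0 of 6, and brown fat markers 1 of 7, which was Ppargc1a. On 7 arrays Sox9, a cartilage factor, was called higher (0.21, limma adjusted p = 0.0173), against 0.21 on 8 arrays (limma adjusted p = 0.0636).

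Of 8 measured adipose progenitor markers 2 were called, Cd34 and Pdgfra, both lower, and 6 did not pass. The mean of the 8 was 8.23 to 8.29 in the Daxx arrays and 8.55 to 8.62 in the vector arrays. Of the 6 that did not pass, Icam1 (-0.29), Cd24a (-0.22), Dpp4 (-0.02) and Pi16 (-0.02) had differences below 0, and Dlk1 (0.29) and Itgb1 (0.07) above 0. Cd34, a surface sialomucin of progenitors, read 9.81 and 9.71 in DaxxA, 9.47 and 9.45 in DaxxB, and 11.42, 11.30, 11.39 and 11.39 in the vector replicates (lower by 3.4-fold, limma adjusted p = 2.02e-05). Pdgfra, a growth factor receptor of mesenchymal precursors, which is also among the fibroblast markers, fell by 0.82 (SE 0.138, limma adjusted p = 0.0119). The mean of the 10 fibroblast markers was lower too, 8.80 to 8.90 in the Daxx arrays and 8.91 to 9.10 in the vector arrays. Of these, 1 was called lower, Pdgfra, and 1 higher, Col1a2, a collagen I chain, which rose by 0.31 (limma adjusted p = 0.0398). Of the uncalled fibroblast markers, Col1a1 (0.13), Fn1 (0.12), Col3a1 (0.07) and Vim (0.01) had differences above 0. Those of S100a4 (-0.35), Lum (-0.28), Fap (-0.25) and Thy1 (-0.23) were below 0. On 7 arrays S100a4, a calcium-binding protein of motile fibroblasts, was called lower too (-0.26, limma adjusted p = 0.0479), against -0.35 on 8 arrays (limma adjusted p = 0.133). Dlk1, the preadipocyte factor, read 8.12 to 8.35 in the Daxx arrays and 7.55 to 8.13 in the vector arrays and did not pass. The part of these markers in the lower Pparg and Cebpd signals was not tested.

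The genes whose pattern over the 8 arrays was most like that of Cebpd were Gas1, a growth arrest gene (Pearson's r 0.997), Foxf2, a forkhead factor of mesenchyme (0.997), and Timp2, a metalloprotease inhibitor (0.995), among 9968 genes at or above the median level. They remained close on 7 arrays, at 0.997, 0.999 and 0.994, and Foxf2 was the most like there. Gas1 differed by -0.80, Foxf2 by -0.53 and Timp2 by -0.35, and all 3 were called (limma adjusted p = 0.00024, 0.000692 and 0.00593). For Pparg the most like were Rnf144b, a ubiquitin ligase (0.985), Tspyl1 (0.97) and Pcid2 (0.97), with differences of -0.64, -0.23 and -0.15, of which that of Rnf144b was called (limma adjusted p = 0.00394). On 7 arrays the 3 most like Pparg were others, Hccs, Npr2 and Aplp1 (0.988, 0.987 and 0.985), and Pparg was among the 3 most like Fabp4 (0.982). These values describe arrays that fall into 2 conditions, so they carry no test. Over the 8 arrays the genes most like Fabp4 were Cdkn1c, Osbp2 and Tsx (0.994, 0.992 and 0.991), at 0.917, 0.849 and 0.886 on 7 arrays. Those most like Zfp423 were Ccdc92, Ylpm1 and AI597479 (0.997, 0.996 and 0.995), and those most like Klf15 were Ooep, Lce1j and Septin1 (0.982, 0.979 and 0.975). For Cebpa they were Ooep, A930016O22Rik and F930017D23Rik (0.982, 0.979 and 0.977), and for Cebpb Ttl, Mob3a and Zfp113 (0.989, 0.982 and 0.981). Lpl was most like Psme3ip1, Hexdc and Get4 (0.936, 0.931 and 0.931). In the same order, r on 7 arrays was 0.98, 0.972 and 0.962 for Zfp423, and 0.94, 0.909 and 0.927 for Klf15. It was 0.942, 0.931 and 0.926 for Cebpa, 0.978, 0.931 and 0.925 for Cebpb, and 0.93, 0.915 and 0.907 for Lpl. On 7 arrays the 3 most like each of these members were other genes, except Ttl for Cebpb. None of the 8-array matches of Fabp4, Zfp423, Klf15, Cebpa, Cebpb and Lpl was called in Daxx minus vector on 8 arrays.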

How the data were processed

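Total RNA of 8 samples was hybridised to Affymetrix arrays after amplification and end labelling with biotin, per the labels' protocols. The deposited log2 values were made by the authors with Affymetrix Expression Console and RMA, per the submitters' processing notes. RMA corrects background, is designed to give the arrays a common distribution and summarises probes into 1 log2 value, which compresses differences near the background. The gene values used here nevertheless did not share a common distribution, because the spread of vector replicate 2 was narrower (interquartile range 2.79). The reason for this was not tested. No tool version or build is stated in the labels used here. Of 35556 probe sets, 21789 had 1 gene symbol in the platform annotation. The brightest probe set over the 8 arrays was used per gene, leaving 19938 genes, with no filter on dim genes.

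Daxx (DaxxA and DaxxB together) was compared with vector in limma 3.58.1 (R 4.3.3, lmFit and eBayes), and DaxxA, DaxxB and vector in a fit of 3 groups, with p-values adjusted over all genes. The members and lists were chosen with earlier results of these data known. Named were the 8 members, the 3 genes most like each, and up to 4 called genes per list by adjusted p, or 2 where none was called. For the inhibitors of adipogenesis the remaining called genes were named too. The fits were tested on simulated data. The number of arrays limits the precision. Scaling, filters, weights, the prior, the probe set rule, a replicate block and single arrays were varied. Promoter sequences are RefSeq's, GRCm38.p6, searched for 10 motifs.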

Additional observations from a re-analysis of the deposited data

Results flagged for a closer look

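In 3 of the 8 vector groups of members, 1 array lay far from the other 3 by Dixon's criterion, and each time it was vector replicate 2. Chance flags about 1 in 20 such groups taken singly. The 8 groups hold the same 4 arrays, so the 3 flags are not independent and are not set against that rate. Fabp4 read 6.53 there, against 5.72 to 5.77 in the other vector arrays. Zfp423 read 6.40, against 6.78 to 6.85. Klf15 read 6.89, against 6.29 to 6.37. None of the 8 Daxx groups of 4 arrays held such a value.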

How the results depend on the processing

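Cebpd stayed lower and called in Daxx minus vector under all 15 alternatives (-0.81 to -0.66, adjusted p from 2.63e-07 to 0.0219). Pparg kept its direction under the same 15 (-0.45 to -0.28) and was called in 7 of them (adjusted p from 0.00229 to 0.123). Fabp4, Lpl and Zfp423 kept their direction and stayed uncalled in Daxx minus vector under all 14 that gave a value. Leaving out single arrays gave 1 to 2 called members in Daxx minus vector, 0 to 2 in DaxxA minus vector and 0 to 2 in DaxxB minus vector. Over all genes the counts were 446 to 2558 against 902, 71 to 2246 against 393, 82 to 4083 against 536, and 0 to 428 against 0 for DaxxA minus DaxxB. The highest counts came without vector replicate 2. Array weights called 3231, 2718, 4252 and 485 genes in these 4 comparisons, with 2 members in DaxxA and 2 in DaxxB minus vector. Quantile normalization called 1428, 663 and 1063 genes, the last split into 411 higher and 652 lower where the count of 536 held 153 and 383. Higher calls outnumbered lower ones in DaxxB minus vector without vector replicate 2 (2182 and 1901) and with array weights (2302 and 1950). Genes at or above the median level alone gave 1442, 633 and 1051 calls, with 2 members called in DaxxB minus vector, and left out Cebpa, Fabp4, Lpl, Zfp423 and Klf15. The trended, robust prior gave 901 in DaxxB minus vector. Fits on the 2 groups alone gave 194, 278 and, for DaxxA minus DaxxB, 362. The cause of these shifts was not tested.

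Replicate numbers are shared between groups, but the labels tie them to nothing, so the numbers were not taken as pairs. Deviations of same-numbered arrays from their group means correlated at 0.0238 to 0.162, above 0.1 in 2 of 6 pairs. In a group of 2 arrays the deviations mirror each other, so these values are not independent and cannot decide whether the numbers are pairs. A replicate block gave 162 genes and 1 member (Cebpd) in Daxx minus vector, 0 genes and 0 members in DaxxA and in DaxxB minus vector. With the block Pparg was at -0.45 (adjusted p = 0.0693), and the signs of Cebpb in DaxxA (0.104), Cebpa in DaxxB (-0.0664) and Klf15 in DaxxB (-0.155) turned.

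Signs also turned for differences near 0 that were never called. Cebpa in Daxx minus vector was 0.0178 with array medians subtracted, 0.0303 after quantile normalization and 0.059 with array weights, and in DaxxA minus vector 0.000258, 0.0339 and 0.0222. Cebpb in DaxxA minus vector was 0.048 with medians subtracted and 0.0121 after quantile normalization, and Klf15 in DaxxB minus vector -0.00029 and -0.0323. With array weights Cebpb and Klf15 in Daxx minus vector were -0.0143 and 0.0225. For DaxxA minus DaxxB, medians subtracted gave Fabp4 0.0407, Lpl 0.0117 and Zfp423 0.0491, and quantile normalization gave 0.0779, 0.0412, 0.0591 and, for Cebpa, 0.00707. Leaving out single arrays gave Cebpa -0.0398 to 0.0701 in Daxx, -0.0831 to 0.0268 in DaxxA and -0.0112 to 0.113 in DaxxB minus vector. It gave Cebpb -0.014 to 0.11 in Daxx and -0.082 to 0.05 in DaxxA, and Klf15 -0.165 to 0.0455 in Daxx and -0.112 to 0.143 in DaxxB. For DaxxA minus DaxxB the ranges were -0.0144 to 0.0666 for Pparg, -0.0538 to 0.0611 for Cebpd, -0.0344 to 0.0299 for Zfp423 and -0.0426 to 0.0212 for Fabp4. The list counts and the most similar genes on 7 arrays were added after seeing the data. The arrays carry no detection calls, so levels near the background, such as those of Fabp4 and Lpl, limit what a small difference can show.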
